A study of Danio rerio with 12 samples.

Results

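The miR-200 family is a group of microRNAs best known from epithelia. It was followed here in small RNA sequencing of sorted zebrafish cells. Entries whose mature name begins with miR-200, miR-141 or miR-429 were taken from the tables of reads on the sense strand, which gave 10 of the 326 mature microRNAs in the series. By title, the libraries belong to an Endo and a NoEndo population of cells from dissociated transgenic embryos and larvae raised at 28 °C, taken 24, 48 or 72 hours (hpf) or 6 days (dpf) after fertilization. The series concerns microRNAs of endothelial cells, the lining of blood vessels, over 4 stages of development. All libraries carry the same tissue and stain labels, endothelial and GFP (green fluorescent protein), so the populations rest on the titles alone. The sources used here do not name the transgene, its promoter or the gate behind NoEndo. The titles Endo and NoEndo of replicate 1 at 72 hpf hold identical files, and both were left out. This left 5 libraries of each population, 2 at 48 hpf and 1 at each other stage, and the labels do not say if replicates are separate clutches. P-values therefore measure the spread between these libraries, which may be technical. In the test over all stages, that spread also holds any change of the difference between populations with stage.

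The family is encoded in vertebrates by clusters of short hairpins, and its mature microRNAs fall into groups that differ in the seed, the stretch that pairs with target transcripts. miR-200b, miR-200c and miR-429 share a seed, and miR-200a and miR-141 share a closely similar one. In mammals the family represses ZEB1 and ZEB2, transcription factors that silence E-cadherin and other epithelial genes, and these factors in turn repress the family, so it is used as a mark of the epithelial state. In zebrafish, members are known from the skin and its ion-transporting cells and from the olfactory epithelium.

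The 10 entries came from 6 hairpins in 2 clusters, each entry 22 bases long and listed at a single place in the genome build Zv9. The cluster on chromosome 23 (plus strand) holds miR-200b-5p at 24358924-24358945, miR-200b-3p at 24358961-24358982, miR-200a-5p at 24359056-24359077, miR-200a-3p at 24359094-24359115 and miR-429a at 24360748-24360769, all within 1846 bases. The cluster on chromosome 6 (minus strand) holds miR-200c-5p at 40587117-40587138, miR-200c-3p at 40587081-40587102, miR-141-5p at 40586916-40586937, miR-141-3p at 40586878-40586899 and miR-429b at 40584015-40584036, within 3124 bases. Each cluster thus carries a miR-200, a member of the miR-200a and miR-141 seed group, and a miR-429. In the RefSeq gene table of the assembly GRCz12tu, where all 6 hairpins matched by name, the hairpins of the chromosome 23 cluster lie within the span of ttll10 and those of the chromosome 6 cluster within the span of ppil1. The names mark 4 entries as 5p arms and 4 as 3p arms, and the 2 miR-429 entries carry no arm.

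Reads on mature microRNAs numbered 250084 to 1068864 in the Endo libraries and 643870 to 5028382 in the NoEndo libraries, so that a count of 0, which allows up to 3 counts, stands for at most 2.81 to 12.002 CPM (reads scaled to a common total) in Endo and 0.602 to 4.67 CPM in NoEndo, counting error only. The miR-126 entries, which mark endothelium, made up 1.61% to 9.42% of counts in Endo and 0.0136% to 0.0715% in NoEndo, without overlap. miR-203 and miR-205, which mark skin and other epithelia, made up 0.675% to 3.33% of counts in Endo and 6.52% to 28.0% in NoEndo, also without overlap, and 0 of their 6 entries were at 0 in every Endo library. Mature microRNA reads were 7.75% to 18.8% of a larger library total in Endo and 17.5% to 40.8% in NoEndo. Levels below are CPM scaled by TMM factors (a correction for differences in composition), which ran from 0.468 in Endo at 6 dpf to 2.37 in NoEndo replicate 2 at 48 hpf.

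The miR-200 family was present in every library and lower in Endo at each stage. The summed family made up 0.0844% ± 0.0350 of all microRNA counts in the Endo libraries and 0.962% ± 0.512 in the NoEndo libraries (SD, n = 5 each). Its summed level was 951 ± 344 CPM in Endo, against 8429 ± 4642 CPM in NoEndo. All 7 members that passed the filter on low counts (at least 10 CPM in at least 3 libraries) fell in Endo relative to NoEndo. The test was edgeR's quasi-likelihood test with a term for stage, called at an adjusted p under 0.05 over 265 microRNAs, of which 41.9% were called, 27.5% lower and 14.3% higher. The median log2 difference was -3.16 over the 7 members and -0.07 over all 265. Within each of the 5 pairs of libraries matched by stage and replicate number, all 7 members were lower in Endo. The members come from 2 clusters and share these libraries, so these comparisons are not independent. How many of all 265 microRNAs were lower in every pair was not counted. At 48 and 72 hpf the deposited tables of replicate 1 by title are named as replicate 2 and the others carry no number, alike in both populations, so the pairs are the same by either. In bulk libraries, fewer cells that carry a microRNA and less of it per cell cannot be told apart.

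**Figure D1:**
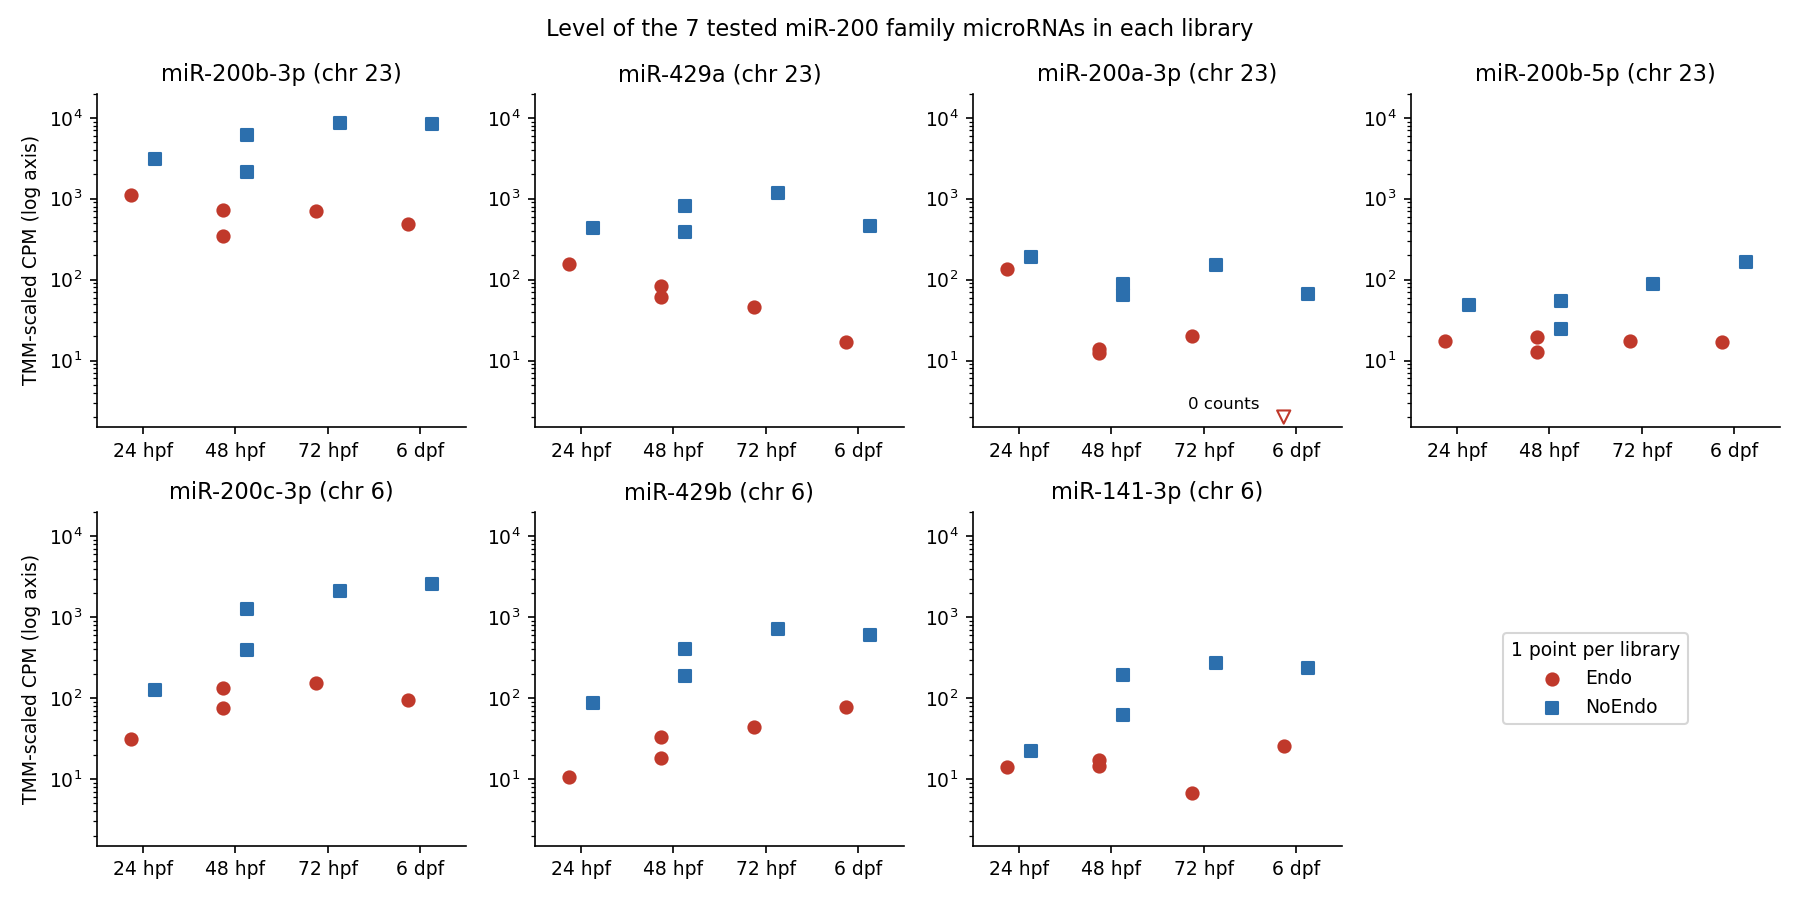
TMM-scaled CPM (log axis) of the 7 tested family members by stage, 1 point per library, with Endo as circles left of NoEndo as squares. miR-200b-3p is the highest member in every library and lies at 345 to 1100.3 CPM in Endo and 2166 to 8750.5 CPM in NoEndo. The open triangle marks miR-200a-3p in Endo at 6 dpf, which had 0 counts.

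dre-miR-200b-3p, a direct repressor of the ZEB factors in mammals, was the most abundant member. In Endo it was at 1100.3 CPM at 24 hpf, 723 CPM (replicate 1) and 345 CPM (replicate 2) at 48 hpf, 713 CPM at 72 hpf and 487 CPM at 6 dpf, against 3121, 6199 and 2166, 8750.5 and 8347 CPM in NoEndo at the same stages. Every Endo library lay below every NoEndo library. The difference was -3.04 on the log2 scale (SE 0.46, edgeR adjusted p = 0.000261). By abundance, miR-200b-3p ranked 67 to 102 among the microRNAs of the Endo libraries and 19 to 43 among those of the NoEndo libraries.

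dre-miR-429a, of the same seed group and cluster, was at 154.7 CPM at 24 hpf, 60.8 and 84.1 CPM at 48 hpf, 45.3 CPM at 72 hpf and 17.1 CPM at 6 dpf in Endo, against 434, 816 and 386, 1193 and 463 CPM in NoEndo. The populations did not overlap, and in Endo the lowest level was that of the oldest larvae, where it rested on 2 counts. Its difference was -3.29 (SE 0.51, edgeR adjusted p = 0.000305). dre-miR-429b, its counterpart on chromosome 6, was at 10.5 CPM at 24 hpf, 32.8 and 18.1 CPM at 48 hpf, 44.2 CPM at 72 hpf and 76.9 CPM at 6 dpf in Endo, against 87.9, 404 and 189, 707 and 604 CPM in NoEndo. These groups did not overlap either, and here Endo was lowest at the youngest stage, on 3 counts. The highest Endo level of miR-429b, at 6 dpf, rested on 9 counts. The log2 difference of miR-429b was -3.47 (SE 0.41, edgeR adjusted p = 3.67e-05).

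dre-miR-200c-3p, the chromosome 6 partner of miR-200b, was at 31.6 CPM at 24 hpf, 135 and 74.5 CPM at 48 hpf, 154.6 CPM at 72 hpf and 94.0 CPM at 6 dpf in Endo, against 128, 1259 and 393, 2125 and 2590.4 CPM in NoEndo. The groups overlapped because NoEndo at 24 hpf lay under Endo replicate 1 at 48 hpf and Endo at 72 hpf, while within each pair of libraries Endo was the lower. The difference with the stage term was -3.32 (SE 0.48, edgeR adjusted p = 0.000224). miR-200c-3p shared more reads with other places than any other member, since the count divided over places was 85.5% of its undivided count, against 96.1% for miR-200b-3p. Its level is therefore less certain.

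The members of the miR-200a and miR-141 seed group were scarcer. miR-141-3p was at 14.1 CPM at 24 hpf, 14.5 and 17.0 CPM at 48 hpf, 6.63 CPM at 72 hpf and 25.6 CPM at 6 dpf in Endo, against 22.4, 193.8 and 61.5, 274 and 234 CPM in NoEndo. Its Endo values rested on 3 to 16 counts per library, and the populations overlapped through NoEndo at 24 hpf. The difference was -3.16 (SE 0.64, edgeR adjusted p = 0.00188). miR-200a-3p was at 134 CPM at 24 hpf, 12.5 and 13.8 CPM at 48 hpf, 19.9 CPM at 72 hpf and 0 at 6 dpf in Endo, against 188, 89.5 and 65.1, 152 and 67.1 CPM in NoEndo. Endo at 24 hpf stood far above the later Endo libraries and above 3 of the 5 NoEndo libraries. At 6 dpf, against a floor of 3 counts in the Endo library, miR-200a-3p was at least 2.62-fold lower in Endo. Over all stages its difference was -2.33 (SE 0.55, edgeR adjusted p = 0.00462), and it was not called with no stage term (-1.64, adjusted p = 0.214).

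Of the passenger arms, the strands of a hairpin that are mostly discarded, only dre-miR-200b-5p was abundant enough to test. It was at 17.6 CPM at 24 hpf, 19.3 and 12.8 CPM at 48 hpf, 17.7 CPM at 72 hpf and 17.1 CPM at 6 dpf in Endo, against 48.3, 54.3 and 24.5, 89.6 and 167 CPM in NoEndo. Its Endo values rested on 2 to 20 counts per library. The populations did not overlap, and the difference was -1.84 (SE 0.50, edgeR adjusted p = 0.0104). This call ended without either library used at 72 hpf (adjusted p = 0.0665 without Endo and 0.0539 without NoEndo). Every Endo library lay below every NoEndo library in 4 of the 7 tested members (miR-200b-3p, miR-200b-5p, miR-429a and miR-429b), as it did in 7.55% of all 265 microRNAs.

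The remaining 5p arms did not pass the filter. miR-200a-5p had 5 counts over the 5 Endo libraries and 65 over the 5 NoEndo libraries. miR-200c-5p had 0 counts over the Endo libraries and 23 over the NoEndo libraries, and miR-141-5p had 0 and 34. At this depth the absence of these arms in Endo cannot be told from a low level. The 5p arm made up 2.71% ± 0.806 of miR-200b counts in the Endo libraries, against 1.30% ± 0.443 in NoEndo (SD, n = 5 each), with ranges of 1.57% to 3.57% in Endo and 0.869% to 1.96% in NoEndo. The ranges overlapped, and the share was higher in Endo in 5 of 5 pairs. Summed over libraries it was 2.57% in Endo (exact 95% binomial interval 1.94% to 3.33%, counting error only) and 1.13% in NoEndo (1.05% to 1.20%), and these intervals did not overlap. The summed intervals of the other hairpins overlapped. Summed likewise, the 5p arm was 5.75% of miR-200a counts in Endo (1.89% to 12.9%) and 4.01% in NoEndo (3.11% to 5.08%). For miR-141 it was 0% in Endo (0% to 8.04%) and 1.36% in NoEndo (0.946% to 1.90%), and for miR-200c 0% (0% to 0.992%) and 0.120% (0.0761% to 0.180%).

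**Figure D2:**
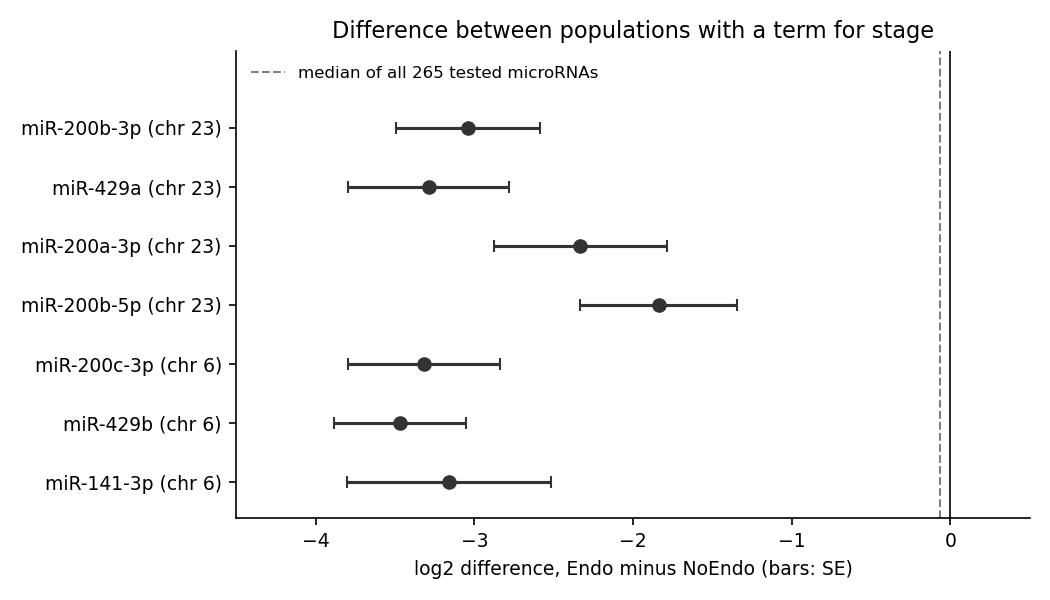
Log2 difference between Endo and NoEndo for each of the 7 tested members, from edgeR with a term for stage, with bars of 1 SE. All lie between -3.47 and -1.84, left of the dashed line at -0.07, the median of all 265 tested microRNAs.

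Although the family was scarcer in Endo, its members stood in nearly the same proportions in both populations. miR-200b-3p made up 69.5% ± 5.39 of family counts in the Endo libraries, against 68.9% ± 4.80 in NoEndo (SD, n = 5 each). miR-200c-3p followed with 11.5% ± 5.29 in Endo and 13.2% ± 6.48 in NoEndo, and miR-429a with 7.68% ± 5.02 and 8.84% ± 3.10. miR-429b held 4.46% ± 3.74 in Endo and 4.51% ± 1.39 in NoEndo, miR-200a-3p 2.96% ± 3.56 and 1.86% ± 1.64, and miR-141-3p 1.93% ± 1.29 and 1.70% ± 0.652. Each of these differences between populations was smaller than the SD of either population. miR-200b-5p was the exception, with 1.91% ± 0.467 in Endo and 0.910% ± 0.332 in NoEndo. In order of share, neighbours among the less abundant tested members had overlapping ranges over libraries in each population. miR-200b-3p stood clear of the rest in each library. These shares are descriptions over members and were not tested.

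**Figure D3:**
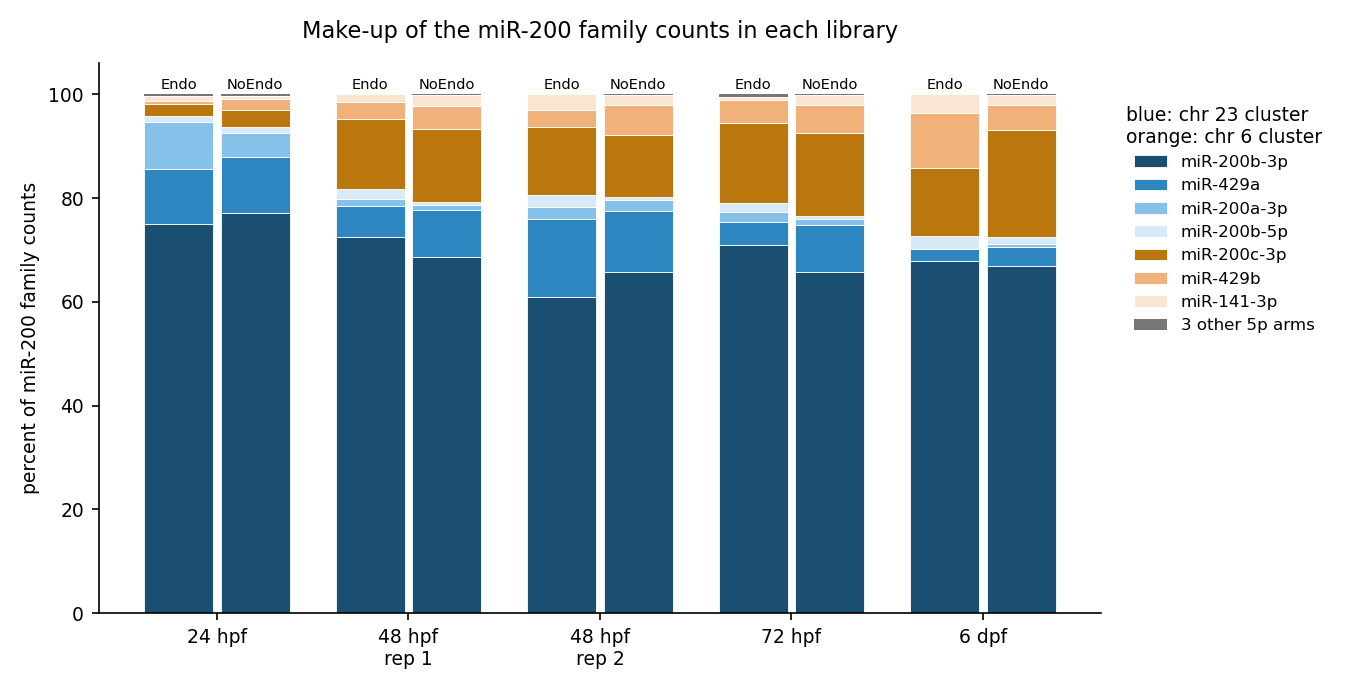
Percent of miR-200 family counts held by each member in each library, in pairs of Endo (left) and NoEndo (right) by stage. Blue shades are the chromosome 23 cluster and orange shades the chromosome 6 cluster. miR-200b-3p takes 61.0% to 75.1% of the Endo bars and 65.8% to 77.2% of the NoEndo bars.

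The share of the chromosome 6 cluster was higher at each later stage than at 24 hpf in both populations. This was not tested. At 24 hpf, 72 hpf and 6 dpf each population had 1 library, so library and stage cannot be told apart there. The chromosome 6 cluster held 3.84% of family counts in Endo at 24 hpf, 18.3% (replicate 1) and 19.4% (replicate 2) at 48 hpf, 20.4% at 72 hpf, then 27.4% at 6 dpf, against 5.88%, 20.6% and 19.6%, 23.4% and 27.5% in NoEndo. The share was lowest at 24 hpf and highest at 6 dpf in each population. Within the 5 matched pairs, the share was lower in Endo in 5 of 5, by 0.117 to 2.98 percentage points, and the exact 95% binomial intervals overlapped in 5 of 5. The interval was widest in Endo at 6 dpf, 18.2% to 38.2%, where the family had 84 counts. Among single members the largest gap in a pair was 7.65 points for miR-200c-3p, at 13.1% in Endo (11 of 84 counts, interval 6.72% to 22.2%) and 20.7% in NoEndo (20.04% to 21.5%) at 6 dpf, and its intervals overlapped in 5 of 5 pairs. For miR-429a the intervals overlapped in 3 of 5 pairs. The share of miR-200a-3p was 9.11% in Endo and 4.65% in NoEndo at 24 hpf, with intervals that did not overlap, and 0% to 2.45% in Endo and 0.538% to 1.98% in NoEndo at later stages.

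**Figure D4:**
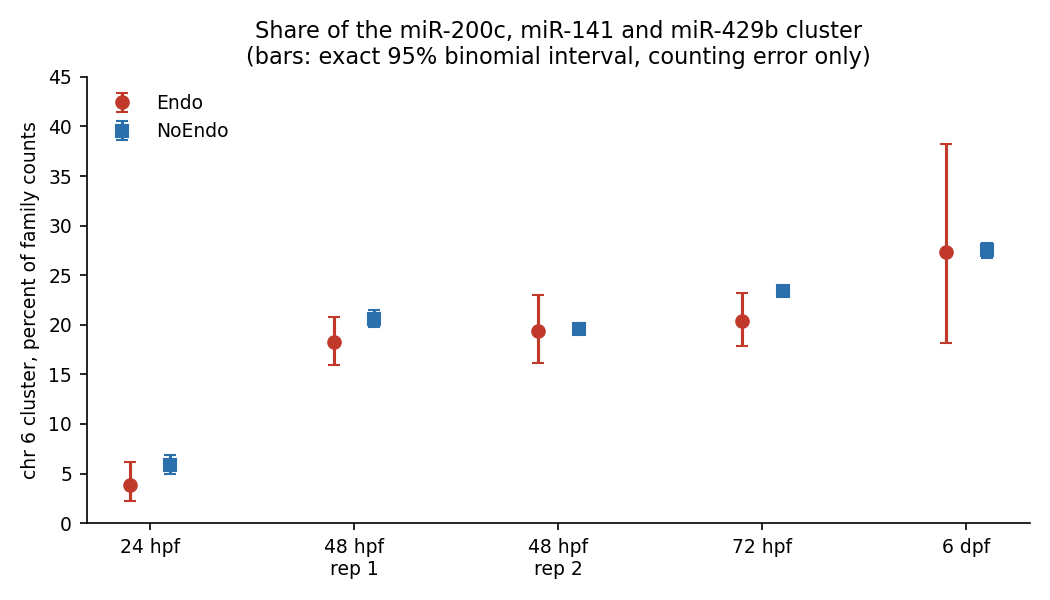
Chromosome 6 cluster (miR-200c, miR-141 and miR-429b) as a percent of miR-200 family counts by stage, with Endo as circles left of NoEndo as squares and bars of the exact 95% binomial interval, which covers counting error only. Both populations run from under 6% at 24 hpf to 27.4% in Endo and 27.5% in NoEndo at 6 dpf.

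Slopes on log2 hours within each population asked which members changed with age. In Endo, 1 of 7 members passed, miR-200a-3p, which fell by 2.09 per unit of log2 hours (SE 0.53, edgeR adjusted p = 0.0497), where 2.64% of all microRNAs were called falling and 3.02% rising, 5.66% in all. That call ended without any 1 of 7 libraries (Endo at 24 hpf, either Endo replicate at 48 hpf, Endo at 6 dpf, either NoEndo replicate at 48 hpf, or NoEndo at 72 hpf), and without Endo at 24 hpf the slope was -0.88 (adjusted p = 0.9997). Without Endo at 72 hpf it was -3.41 (edgeR adjusted p = 0.0153). miR-429a (-1.20, SE 0.40, edgeR adjusted p = 0.0980) and miR-429b (1.10, SE 0.41, adjusted p = 0.116) had slopes of opposite sign in Endo and did not pass. In NoEndo, 0 of 7 passed in edgeR, which called 8.3% of all microRNAs rising and 6.79% falling, 15.1% in all. At an unadjusted edgeR p under 0.05 were 4 members and 85 of all 265 microRNAs. DESeq2 called 3 members and 85 of all 265, and limma-voom called 1 member and 46 of all 265. The members of the chromosome 6 cluster had the steepest NoEndo slopes, miR-200c-3p at 1.71 (SE 0.53, edgeR adjusted p = 0.0559), miR-141-3p at 1.30 (SE 0.55, adjusted p = 0.135) and miR-429b at 1.16 (SE 0.40, adjusted p = 0.0824). miR-200b-5p followed at 0.78 (SE 0.33, edgeR adjusted p = 0.134), and the other 3 members lay between -0.42 and 0.64.

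In the summed family, most of it miR-200b-3p, the gap between the populations was narrowest at 24 hpf. By member this did not hold for miR-429b (log2 difference -3.05 at 24 hpf and -2.97 at 6 dpf). Nor did it hold for miR-200b-5p (-1.45 at 24 hpf and -1.27 at 48 hpf). Both members rested on few counts in Endo. The summed family level in Endo was 36.3% of that in NoEndo at 24 hpf, 11.1% (replicate 1) and 17.2% (replicate 2) at 48 hpf, 7.56% at 72 hpf, then 5.75% at 6 dpf. Scaled by total counts alone, these ratios were 35.2%, 7.45% and 9.16%, 5.53% and 4.74% in the same order. The difference of slopes between the populations tests such a widening for each member. It passed for 0 of 7 in edgeR (adjusted p between 0.937 and 0.999) and for 0% of all microRNAs. At an unadjusted edgeR p under 0.05 were 2 members and 12 of all 265 microRNAs. DESeq2 called 0 members and 2 of all 265, and limma-voom called 0 of either. The slope differences, Endo minus NoEndo, were -1.66 (SE 0.69) for miR-200a-3p, -1.39 (SE 0.56) for miR-429a and between -1.13 and -0.05 for the other 5 members.

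**Figure D5:**
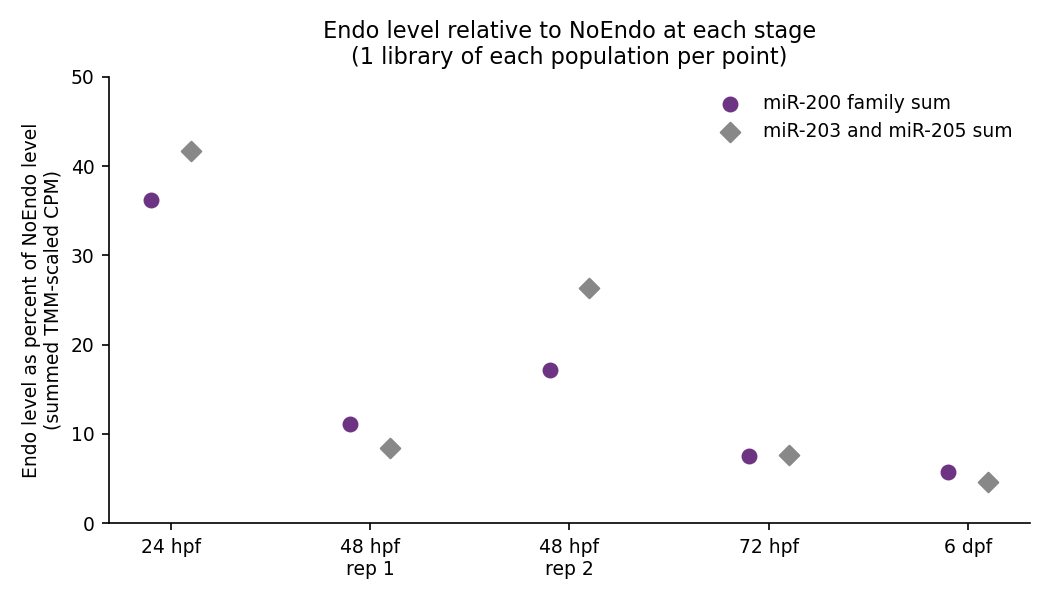
Summed TMM-scaled CPM in Endo as a percent of that in NoEndo for the miR-200 family (circles) and for miR-203 and miR-205 (diamonds), for each pair of libraries by stage. The family runs from 36.3% at 24 hpf to 5.75% at 6 dpf and miR-203 and miR-205 from 41.7% to 4.62%.

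Stage by stage, the spread came from the 48 hpf replicates of each population alone. At 24 hpf 0 of 7 members passed in edgeR. At an unadjusted edgeR p under 0.05 were 1 member (miR-429b) and 29 of all 265 microRNAs. DESeq2 called 0 members and 16 of all 265, and limma-voom called 0 members and 2 of all 265. The differences of the members there ran from -3.05 to -0.49 (SE 0.79 to 1.22), and edgeR called 0% of all microRNAs lower and 0.755% higher. At 48 hpf 6 of 7 members passed as lower in Endo, all but miR-200b-5p, where 10.6% of all microRNAs were called, 5.66% lower and 4.91% higher. The differences ran from -3.53 for miR-429b (SE 0.72, edgeR adjusted p = 0.0288) to -1.27 for miR-200b-5p (SE 0.72, adjusted p = 0.250). DESeq2 called 6 members and 95 of all 265 at 48 hpf. DESeq2 size factors, limma-voom and the unadjusted read count each gave 3 members there, with 20, 23 and 17 of all microRNAs called, against 28. The identical file under both titles or as NoEndo gave 0 members and 0 of all microRNAs. The count at 48 hpf was 0 without either Endo replicate of that stage. At 72 hpf DESeq2 called 6 of 7 members and 51 of all 265 microRNAs. In edgeR only miR-429a passed there (-4.72, SE 0.97, edgeR adjusted p = 0.0463), where 3.77% of all microRNAs were called, 1.13% lower and 2.64% higher. That call ended without either Endo replicate at 48 hpf (adjusted p = 0.219 without replicate 1 and 0.216 without replicate 2), and 5 members passed without either NoEndo replicate at 48 hpf. At 6 dpf 0 of 7 passed in edgeR (adjusted p between 0.0822 and 0.173), which called 1.89% of all microRNAs, 0.377% lower and 1.51% higher. At an unadjusted edgeR p under 0.05 were 7 members and 64 of all 265 microRNAs. DESeq2 called 4 members and 58 of all 265, and limma-voom called 0 members and 5 of all 265.

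The microRNAs whose profile over the 10 libraries was most like that of the family were mainly forms of miR-203 and miR-205. Likeness was the root mean square difference of centred log2(TMM-scaled CPM + 1) from the mean profile of the 7 tested members, among 159 other microRNAs with a mean of at least 100 CPM. The nearest were miR-203b-5p (0.62), miR-203b-3p (0.68), miR-205-5p (0.68), miR-183-3p (0.69) and miR-203a-3p (0.70), where the median of all tested microRNAs was 1.89 and the members themselves lay between 0.30 (miR-200b-3p) and 1.59 (miR-200a-3p). Among all 265 tested microRNAs miR-200b-3p ranked 1, and the other members ranked from 7 (miR-200b-5p) to 76 (miR-200a-3p), behind these 5 non-members. miR-203 acts in mammals in the differentiation of skin, and miR-205 is a microRNA of stratified epithelia. miR-183 is known from hair cells and photoreceptors. All 10 libraries enter each of these profiles, so the difference between populations enters the measure. Each tested member also enters the mean profile it is measured against, which lowers its own distance and rank but not those of the non-members.

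Of the 6 entries of miR-203 and miR-205, 5 passed the filter and 5 fell in Endo, with a median log2 difference of -3.43. miR-205-5p averaged 13570.1 ± 9155 CPM in the Endo libraries, against 111725 ± 75205 CPM in NoEndo (SD, n = 5 each; log2 difference -3.07, SE 0.53, edgeR adjusted p = 0.000620), and miR-203b-3p 3761 ± 2119 and 42421 ± 31116 CPM (-3.43, SE 0.67, adjusted p = 0.00151). The miR-200 family came to 5.89% ± 1.57 of the counts of miR-203 and miR-205 in Endo and 6.34% ± 3.24 in NoEndo. The ratio ran from 3.86% to 7.80% in Endo and from 4.00% to 11.97% in NoEndo, highest in NoEndo replicate 2 at 48 hpf. Summed levels of miR-203 and miR-205 in Endo were 41.7% of those in NoEndo at 24 hpf, 8.48% (replicate 1) and 26.4% (replicate 2) at 48 hpf, 7.68% at 72 hpf, then 4.62% at 6 dpf. Among lists of other cell types, 5 of 5 tested microRNAs of sensory epithelia were lower in Endo and 3 of 4 of leukocytes were higher. Before TMM scaling, the sensory sum was 80.0 to 314 CPM in Endo and 464 to 2911 CPM in NoEndo. The leukocyte sum, also before TMM scaling, was 9221 to 62215 CPM in Endo and 581 to 1217 CPM in NoEndo. After TMM scaling, the leukocyte sum in Endo was on average mostly miR-150 (mean 55406 CPM, against 3362 for miR-223, the next). Lower in Endo were also 8 of 13 neural, 3 of 10 striated muscle, 2 of 4 pancreas and 4 of 4 gut and liver microRNAs, and 0 of 1 erythroid. The neural count includes miR-2191, not called, whose name begins like miR-219 but carries another number. Among the muscle entries, miR-133a-2-5p had the same values as the 5p arm of miR-133a (log2 difference -0.17, not called). That signal is therefore counted more than once. Over all microRNAs 27.5% were called lower and 14.3% higher, and the share of striated muscle microRNAs called lower was near that background. The part of these cell types in the level of the family was not tested.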

How the data were processed

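Liberase dissociation, FACS for GFP, Trizol extraction and TruSeq libraries are described per the labels' protocols. STAR 2.3.0 and the build Zv9 appear in the submitters' processing notes. The sources used here do not state the trimming, annotation, counting program or filters. Per the file headers, each deposited table gives whole read counts for each genomic copy, expected counts (multi-mapping-adjusted read counts, in which a read is divided over its places) and reads per scaled total for 2 library totals. These deposited signal columns served only to recover the totals. The antisense tables listed 0 family members.

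Expected counts were summed by name and rounded. Names reaching 10 CPM in 3 or more of 10 libraries were tested (265, holding at least 99.9% of counts) with edgeR 4.0.16 (TMM, robust quasi-likelihood F test, Benjamini-Hochberg at 0.05). The models held stage and population, 1 mean per population and stage, or a slope on log2 hours per population. SE was taken as log2 difference / √F, and the biological coefficient of variation was 0.450. The models were tested on simulated data. Alternatives used DESeq2 1.42.0 and limma 3.58.1. The rule for named microRNAs took every family entry, the 5 nearest profiles, and the cell type marker lists, as counts and summed levels. The members and lists were chosen with earlier results of these data known, so their counts are read beside those of all microRNAs.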

Additional observations from a re-analysis of the deposited data

Results flagged for a closer look

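In 2 of 22 groups of 5 libraries that were checked for a library far from the others, 1 library stood apart. Chance gives about 1 in 20. miR-200a-3p was at 134 CPM in Endo at 24 hpf, against 0 to 19.9 CPM in the other Endo libraries. The share of miR-200b-3p in the family was 77.2% in NoEndo at 24 hpf, against 65.8% to 68.7% in the other NoEndo libraries. Each of these libraries is the only one of its population at 24 hpf, so the library and the stage cannot be told apart.

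The identical file deposited under the titles Endo and NoEndo of replicate 1 at 72 hpf, which entered no comparison, held 224 counts of the family. That is 439 CPM before TMM scaling, against 336 to 1286 CPM in the Endo libraries used and 3651 to 16557 CPM in the NoEndo libraries used. The miR-126 sum of that file was 18798 CPM, against 16095 to 94225 CPM in Endo and 136 to 715 CPM in NoEndo. Its sum of miR-203 and miR-205 was 7082 CPM, against 6753 to 33314 CPM in Endo and 65172 to 279752 CPM in NoEndo.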

How the results depend on the processing

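Every alternative kept the sign of each tested member's difference between Endo and NoEndo over all stages, in 188 of 188 fits of a member, and 8 of these fits lost the call. The number of members called, 7, was 6 with a 100 CPM filter (which tests 6), with no stage term, with the identical file under both titles, and without both 72 hpf libraries. It was 4 with the identical file kept as NoEndo, when the calls of miR-200b-5p, miR-200a-3p and miR-141-3p ended (adjusted p = 0.107, 0.0693 and 0.0582). It ran from 6 to 7 leaving out each library. The number of all microRNAs called, 111, was 65 without NoEndo and 70 without Endo replicate 2 at 72 hpf, 65 without both, 43 with no stage term, 197 with the larger library total, and 40 and 27 with the identical file under both titles and as NoEndo. Total counts alone moved the median of all microRNAs from -0.07 to -0.52 and the larger library total moved it to -1.62. The alternatives with the larger total and without both libraries of a stage were chosen after seeing the data.

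At 48 hpf the number of members called, 6, was 3 with DESeq2 size factors, limma-voom or the unadjusted read count, and 0 with the identical file under both titles or as NoEndo. It ran from 0 to 6 leaving out each library. At 72 hpf the number, 1, was 6 with a 100 CPM filter, the DESeq2 Wald test or the identical file as Endo, 3 with limma-voom, 2 without the most abundant microRNA, and 0 with DESeq2 size factors, total counts alone, the unadjusted read count, or the identical file under both titles or as NoEndo. It ran from 0 to 5 leaving out each library. At 6 dpf the number, 0, was 4 with a 100 CPM filter or the DESeq2 Wald test, 3 with the identical file as Endo and 2 without the most abundant microRNA. It ran from 0 to 3 leaving out each library. For the Endo slope the number, 1, was 2 with the DESeq2 Wald test and 0 with total counts alone, no filter, limma-voom, or the identical file under both titles or as NoEndo, and it ran from 0 to 1 leaving out each library. For the NoEndo slope the number, 0, was 3 with the DESeq2 Wald test and 1 with a 100 CPM filter, limma-voom or the identical file as Endo, and it ran from 0 to 1 leaving out each library (1 without Endo at 6 dpf or NoEndo replicate 1 at 48 hpf). Left-out libraries aside, calls over all microRNAs moved the same way, except for the NoEndo slope with a 100 CPM filter. The cause was not tested for any of these changes. Leaving out a 48 hpf library leaves a population with a single library there, which is assumed to vary like the others.

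The replicate block, with replicate number as a term, called 7 members over all stages, 6 at 48 hpf, 1 for the Endo slope and 0 for the NoEndo slope and the slope difference, and changed none of these counts. At 48 hpf the deviations of replicate 1 from its population mean correlated at r = 0.66 between Endo and NoEndo across 265 microRNAs, which are not independent replicates. With 2 numbers this does not show that the numbers pair the libraries. Depth limits the members with few counts, miR-141-3p and both arms of miR-200a in Endo, and the 6 dpf Endo library, where the family had 84 counts.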
